A study of Chlamydomonas reinhardtii with 9 samples.

Results

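CDJ3 (Cre01.g009900) and CGLD27 (Cre05.g237050) are 2 nuclear genes of Chlamydomonas, out of 17893 genes counted in 9 single-cell libraries. They were chosen by name from earlier results of the same libraries, because both were higher in iron-starved cells and because the 2 strains differed. Their response to iron and the difference between strains are therefore given as a description, without a test. Experiment 1 held 3 libraries of the cell wall-deficient strain CC-5390 (cw15 arg7-8::ARG7 mt+): iron-replete cells (Fe+), iron-starved cells (Fe−), and an equal mixture of both (Mix). Experiment 2 held Fe+, Fe− and 2 nitrogen-starved (N−) libraries of CC-5390, and Fe+ and Fe− libraries of CC-4532, a walled strain of the opposite mating type (mt−). Cells had grown in Tris-acetate-phosphate medium under constant light and then spent 23 h with 20 µM FeEDTA (Fe+), without added iron (Fe−), or without nitrogen but with full iron (N−). The N− libraries, R1 and R2, are described as technical duplicates, although the flasks listed for the cultures leave it unclear whether they came from the same one, and they are summed here as 1 sample. Each other condition of a strain had 1 library per experiment, so CC-4532 has no replicate of any kind. Strain, cell wall, mating type and culture differ together between CC-5390 and CC-4532 and cannot be told apart.

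Iron is needed for the heme and iron-sulfur proteins of the chloroplast, where photosystem I and the cytochrome complexes hold much of the iron of an algal cell. When iron is short, Chlamydomonas induces uptake proteins at the plasma membrane and remodels its photosynthetic apparatus. CDJ3 is a chloroplast J-domain protein, a co-chaperone that brings substrates to the chloroplast Hsp70, and it belongs to a small group of such proteins that also carry a ferredoxin-like domain with an iron-sulfur cluster. CGLD27 is named for its conservation in the green lineage and in diatoms, and its biochemical function is not settled. Both are among the 100 genes of a published iron deficiency list, which came from bulk RNA sequencing of CC-4532. Its genes were picked for their level and their rise in low iron, not for a shared function. The remaining 98 serve below for comparison.

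CDJ3 lies on chromosome 1 from 1830819 to 1835434 of the v5.5 genome, and CGLD27 on chromosome 5 from 2780600 to 2784931, both as protein-coding genes in the RefSeq annotation of that assembly. The next gene before CDJ3, Cre01.g009850, ends 2 bases from it, and the next gene after CGLD27, Cre05.g237100, starts 48 bases from it. These neighbours did not share the size of the response, except beside CGLD27 in CC-4532. The log2 ratio of Fe− to Fe+ was 0.01, -0.35 and 0.13 for Cre01.g009850 and 0.19, 0.94 and 0.65 for Cre05.g237100, in CC-5390 of experiment 1, CC-5390 of experiment 2 and CC-4532 in turn. In CC-4532 the ratio of Cre05.g237100 was thus above that of CGLD27, 0.44, although this neighbour had only 519 UMIs over all libraries. Of the 2 nearest genes on each side of CDJ3 and of CGLD27, none was on the iron deficiency list. The highest ratio among them was 2.05, for Cre05.g236950 in experiment 1 (292 UMIs over all libraries). That gene was at -1.42 in CC-5390 of experiment 2.

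The libraries held 2064 to 11798 cells and 7576775 to 52436795 unique molecular identifiers (UMIs, each of which counts 1 captured mRNA molecule), with a median of 1388 to 5843 UMIs per cell. Levels are CPM, the UMIs of a gene per 1000000 UMIs of its library, with exact Poisson 95% intervals that cover counting error only and not the variation between cultures. Fewer expressing cells and less RNA per cell cannot be told apart in a library total. The 10 most abundant genes took 13.3% to 22.2% of all UMIs. Between 1.43% and 2.04% of the barcodes of a library also occurred in another one. Without these cells, each of the 8 log2 ratios given below stayed within its counting interval.

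CDJ3 was low in both Fe+ libraries of CC-5390 and high in both Fe− libraries. In experiment 1 its level was 18.4 CPM (16.97 to 19.97, 591 UMIs) in Fe+ and 168.7 CPM (164.6 to 172.9, 6265 UMIs) in Fe−. In experiment 2 it was 22.9 CPM (21.4 to 24.5, 862 UMIs) in Fe+ and 95.1 CPM (92.5 to 97.8, 4989 UMIs) in Fe−. CDJ3 was thus 9.16-fold higher in Fe− in experiment 1 (8.42 to 9.98) and 4.15-fold higher in experiment 2 (3.86 to 4.47). The 2 experiments differed by -1.14 in the log2 ratio (SE 0.08 from counting). In plain CPM, experiment 2 had 0.564 times the level of experiment 1 in Fe− and 1.24 times in Fe+. Over all genes compared, the median log2 ratio of experiment 2 to experiment 1 was -0.91 in Fe− and -0.66 in Fe+. Among those genes CDJ3 was at the 53.0th percentile in Fe− and at the 84.2nd in Fe+.

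CGLD27 followed the same order of conditions in CC-5390, with a wider span. Its level was 15.0 CPM (13.7 to 16.4, 482 UMIs) in Fe+ and 224.1 CPM (219.3 to 228.9, 8320 UMIs) in Fe− of experiment 1. In experiment 2 it was 5.98 CPM (5.22 to 6.82, 225 UMIs) in Fe+ and 54.3 CPM (52.4 to 56.4, 2849 UMIs) in Fe−. The Fe− level was 14.9-fold higher in experiment 1 (13.6 to 16.4) and 9.08-fold higher in experiment 2 (7.93 to 10.5). Unlike CDJ3, CGLD27 was lower in experiment 2 in both conditions, at 0.398 times the experiment 1 level in Fe+ and 0.242 times in Fe−. Among all genes compared, these ratios were at the 24.1st and the 7.12th percentile. In each experiment its log2 ratio exceeded that of CDJ3, by 0.70 in experiment 1 (SE 0.09 from counting) and by 1.13 in experiment 2 (SE 0.11).

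In CC-4532 the 2 genes parted. CDJ3 rested at 11.2 CPM (9.69 to 12.8, 204 UMIs) in Fe+ and reached 49.1 CPM (46.8 to 51.6, 1623 UMIs) in Fe−, a ratio of 4.40 (3.80 to 5.11). CGLD27 was at 8.49 CPM (7.20 to 9.93, 155 UMIs) in Fe+ and 11.5 CPM (10.4 to 12.7, 380 UMIs) in Fe−, a ratio of 1.36 (1.12 to 1.64). The Fe− level of CGLD27 in CC-4532 was therefore below its Fe+ level in CC-5390 of experiment 1 and above that of experiment 2. Here CDJ3 exceeded CGLD27 in its log2 ratio by 1.70 (SE 0.17 from counting), the reverse of the order in CC-5390.

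**Figure D1:**
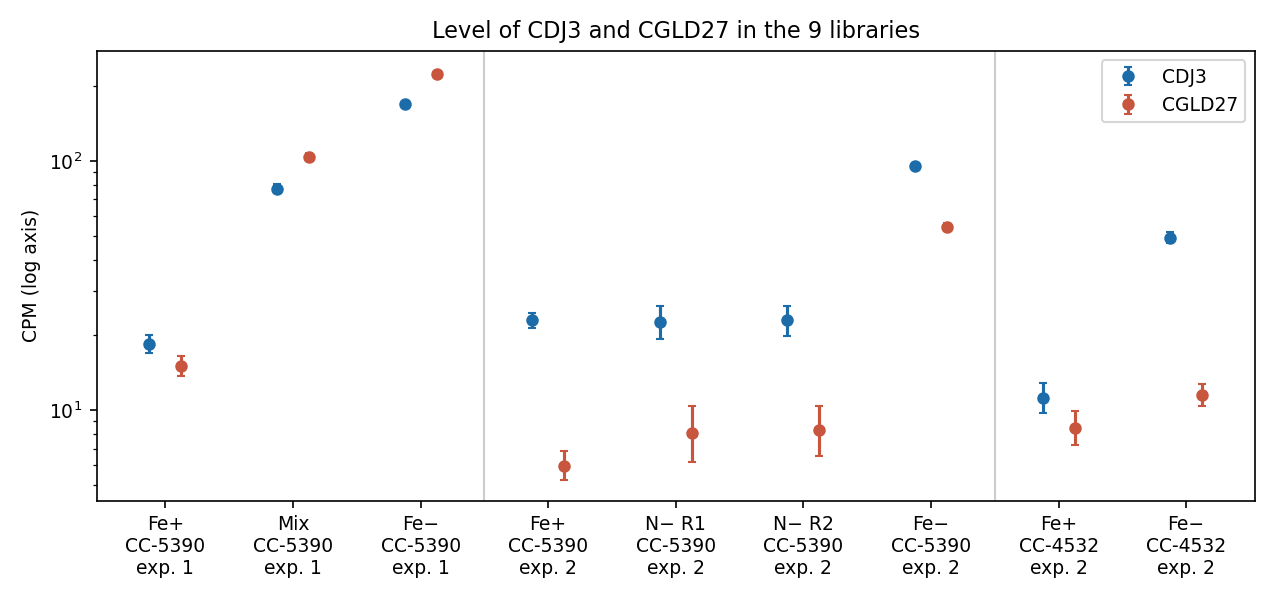
Level of each gene in the 9 libraries, in CPM on a log axis, with exact Poisson 95% intervals that cover counting error only. In CC-5390 both genes are far higher in Fe− than in Fe+, while in CC-4532 CDJ3 goes from 11.2 to 49.1 CPM and CGLD27 only from 8.49 to 11.5 CPM.

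Within experiment 2 the strain difference lay almost wholly in CGLD27. The log2 ratio of Fe− to Fe+ was 2.13 in CC-4532 and 2.05 in CC-5390 for CDJ3, a difference of 0.08 (-0.15 to 0.31 from counting; -0.30 with the TMM library sizes described below). For CGLD27 it was 0.44 in CC-4532 and 3.18 in CC-5390, a difference of -2.74 (-3.08 to -2.41). CDJ3 in CC-4532 had about the same fraction of the CC-5390 level in Fe+ (0.487) as in Fe− (0.516). CGLD27 in CC-4532 was 1.42 times the CC-5390 level in Fe+ and 0.212 times in Fe−. Over all genes compared, the median log2 ratio of CC-4532 to CC-5390 was -0.87 in Fe+ and -0.57 in Fe−. CDJ3 was at the 41.8th percentile of those genes in Fe+ and the 36.9th in Fe−, so it stood near the typical gene. CGLD27 was at the 92.3rd in Fe+ and the 7.69th in Fe−. Set against CC-5390 of experiment 1 instead, CDJ3 also differed, by -1.06 (-1.30 to -0.82), and CGLD27 by -3.46. The spread of CDJ3 between the 2 experiments of CC-5390 is thus larger than its difference between strains in experiment 2, whereas CGLD27 differed between the CC-5390 experiments by only -0.72.

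The choice of scale mattered for the CC-4532 values. The median log2 ratio of Fe− to Fe+ was 0.40 in CC-4532, taken over the 12621 genes that had at least 20 UMIs in its 2 libraries, against 0.18 and 0.02 in CC-5390 of experiments 1 and 2. CGLD27, at 0.44, was at the 51.3rd percentile of those genes, so it stood near the middle of all genes, and with library sizes from the trimmed mean of M values (TMM) its log2 ratio turned to -0.01. CDJ3 was at the 87.3rd percentile and had a log2 ratio of 1.69 on the TMM scale. In CC-5390 the percentiles were 98.9 and 92.5 for CDJ3 and 99.5 and 98.0 for CGLD27.

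Most of the other genes of the iron deficiency list had a larger ratio of Fe− to Fe+ in CC-4532 than CGLD27 did, and 9 had a smaller one. Of the 97 with at least 20 UMIs in the 2 libraries, 84 were over 2-fold higher in Fe−, beside 34.4% of all genes compared, and their median log2 ratio was 2.29. CDJ3 ranked 53rd when placed among them and CGLD27 89th. In CC-5390, 74 of 96 other list genes were over 2-fold higher in experiment 1 (17.8% of all genes) and 60 of 96 in experiment 2 (22.1%), with medians of 1.65 and 1.41. There CGLD27 ranked 14th in both experiments, and CDJ3 20th and 35th. Over the 96 other list genes with a ratio in both strains of experiment 2, the difference between CC-4532 and CC-5390 had a median of 0.92, and 0.29 over all 12497 genes compared. None of the 96 had a difference as low as that of CGLD27, and of all genes 47 did. For CDJ3, 26 of the 96 were lower. Of the 60 list genes over 2-fold higher in Fe− of CC-5390 in experiment 2, 57 were also over 2-fold higher in CC-4532, and 1 of the 60 had a smaller ratio there than CGLD27. The list was drawn up in CC-4532 and holds the pair itself, so the ranks describe these libraries only.

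**Figure D2:**
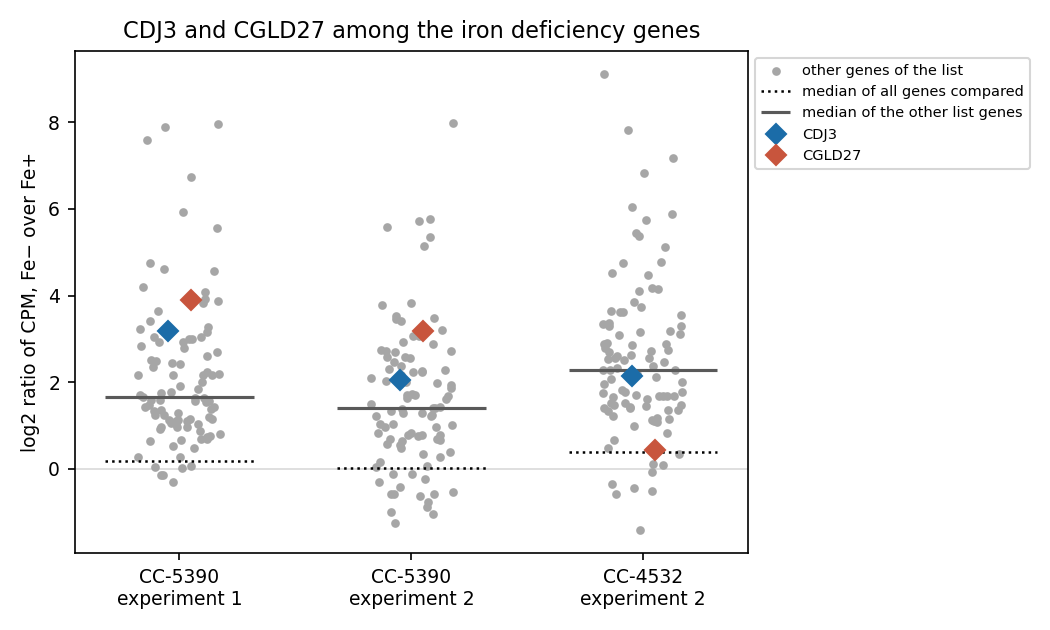
Log2 ratio of CPM in Fe− over Fe+ for CDJ3, CGLD27 and the other genes of the iron deficiency list (grey points, spread sideways at random), in each pair of libraries, with the median of the other list genes (solid line) and of all genes compared (dotted line). CGLD27 is above the list median in both CC-5390 experiments and on the median of all genes in CC-4532.

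Across the whole table, edgeR's quasi-likelihood test on library sums called none of 15277 genes (0%) for a difference between strains in the response to iron at an adjusted p under 0.05. Each CC-4532 condition is 1 library in that fit, so the spread comes from CC-5390 alone and CC-4532 is assumed to vary like it. There were 291 genes at an unadjusted p under 0.05, and DESeq2 called none either (224 genes at an unadjusted p under 0.05). For Fe− against Fe+ in CC-5390, 2 libraries against 2, edgeR called 0 of 14588 genes (0%), with 1777 at an unadjusted p under 0.05, while DESeq2 called 556. A fit with the experiment as a replicate block leaves 1 residual degree of freedom. In that fit edgeR called 1194 genes, of which 630 (4.32% of those tested) were higher in Fe−. These included 39 of the 96 other list genes tested. The fitted log2 fold changes for this contrast with the block were 2.49 for CDJ3 and 3.40 for CGLD27, and no test of them is given, since the pair was picked on it.

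The share of cells with a UMI was higher in Fe− than in Fe+ for both genes in CC-5390, and for CDJ3 but not for CGLD27 in CC-4532. In CC-5390 of experiment 1, 38.7% of Fe− cells and 4.86% of Fe+ cells had a CDJ3 UMI, and 45.6% and 4.0% a CGLD27 UMI. In experiment 2 the shares for CDJ3 were 33.1% in Fe− and 6.87% in Fe+, and for CGLD27 23.6% and 1.92%. In CC-4532 they were 11.9% in Fe− and 5.95% in Fe+ for CDJ3, and 3.57% and 4.78% for CGLD27, so that the CGLD27 share was lower in Fe− although its CPM was higher. The median cell had 5473 UMIs in Fe+ and 2906 in Fe− of this strain. Thinned to 1000 UMIs per cell, the CGLD27 shares were 1.16% in Fe− and 0.837% in Fe+ and those of CDJ3 3.95% and 0.946%. Shares this low for CGLD27 do not show a change at this depth. The cultures hold 1 species of unicellular alga, so no cell type that lacks the transcripts gave a background share.

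CDJ3 was spread unevenly over the Fe− cells of CC-4532. The library total, shared out in proportion to depth, would give 1464 cells with a UMI and 13.0 cells with 3 or more, but 1193 cells had a UMI, 88 had 3 or more, and 1 cell had 14. In Fe− of CC-5390 in experiment 2, 461 cells had 3 or more CDJ3 UMIs against 286.0 from depth. In Fe− of experiment 1 the numbers were nearly equal, 430 and 418.0. For CGLD27 there were 105 cells against 71.7 in experiment 2 and 776 against 750.6 in experiment 1. In Fe− of CC-4532, 2 cells had 3 or more CGLD27 UMIs, and 0.211 was the number from depth.

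To see with what else the pair varied from cell to cell, the cells of each library were divided into 4 equal parts by the share of their UMIs on the 98 other iron deficiency genes. In Fe− of CC-4532, CDJ3 was at 15.7, 23.9, 40.8 and 104.4 CPM from the lowest to the highest of these parts. CGLD27 stayed level, at 10.3, 12.1, 11.8 and 11.7 CPM. In Fe− of CC-5390 in experiment 2, CDJ3 was at 53.4, 76.9, 111.7 and 191.5 CPM and CGLD27 at 56.1, 51.4, 50.8 and 61.0 CPM. CDJ3 thus tracked the rest of the list within both Fe− cultures of experiment 2 and CGLD27 did not. In Fe− of experiment 1 neither gene tracked it closely. CDJ3 ran from 133.3 CPM in the lowest part to 201.7 in the one below the highest and 182.7 in the highest. CGLD27 ran from 199.4 to 260.9 and 213.7. The rise of CDJ3 with the list in experiment 2 was not confined to Fe−. In Fe+ of CC-5390 in experiment 2 its log2 ratio of the highest to the lowest part was 1.23 (0.96 to 1.52 from counting). In N− it was 1.09 (0.26 to 2.03) in R1 and 2.14 (1.25 to 3.31) in R2. In Fe+ of CC-4532 the ratio was 0.50 (-0.20 to 1.23) for CDJ3 and 1.01 (0.21 to 1.89) for CGLD27.

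Depth moved with these parts in Fe− of CC-5390. The median UMIs per cell went from 8129 in the lowest part to 2261 in the highest in experiment 2, and from 5528.5 to 2244.5 in experiment 1. In CC-4532 depth hardly moved, from 2741 to 3050. Among the CC-5390 cells of experiment 2 at or above the median depth, the log2 ratio of the highest to the lowest part was 1.65 for CDJ3. Over all cells it was 1.84. After thinning to 1000 UMIs it was 1.27 there and 2.22 in CC-4532, where it was 2.73 over all cells.

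The 83 genes of the photosynthesis list, none of which is on the iron list, gave another order. Divided by the share of UMIs on these genes, Fe− cells of CC-5390 in experiment 2 had CGLD27 at 31.7, 43.9, 53.6 and 71.8 CPM from the lowest to the highest part, and CDJ3 at 128.1, 120.0, 95.2 and 65.2 CPM. In Fe− of CC-4532, CGLD27 was at 5.22, 11.1, 13.3 and 17.2 CPM, while CDJ3 was at 51.4, 55.1, 52.2 and 35.9 CPM. CGLD27 therefore went with the photosynthesis genes within both Fe− cultures of experiment 2. CDJ3 went the other way in CC-5390, and in CC-4532 it was lower only in the highest part. Median depth went from 3199 UMIs in the lowest part to 8250 in the highest in CC-5390. After thinning to 1000 UMIs, the log2 ratio of the highest to the lowest part was -0.78 for CDJ3 and 1.03 for CGLD27 there. In CC-4532 these ratios were -0.51 and 1.59. In Fe− of experiment 1 both were slightly higher in the highest part, CDJ3 by 0.27 and CGLD27 by 0.29 on the log2 scale. In N− CDJ3 was higher in the highest part too, by 1.48 in R1 and 2.86 in R2, while CGLD27 differed by -0.58 and 0.52. In Fe+ of CC-4532 both were higher with the photosynthesis genes. CDJ3 was at 3.78 CPM (16 UMIs) in the lowest part and 24.0 (132 UMIs) in the highest, and CGLD27 at 1.89 (8 UMIs) and 16.9 CPM (93 UMIs). These are log2 ratios of 2.63 (1.91 to 3.51 from counting) and 3.08 (2.12 to 4.41), with few UMIs in the lowest parts. They were 1.47 and 2.66 after thinning to 1000 UMIs, and 2.35 and 2.22 among the cells at or above the median depth. In their highest parts, the Fe− and Fe+ cells of CC-4532 had nearly equal CGLD27 levels, 17.2 and 16.9 CPM, with intervals of 14.3 to 20.4 and 13.6 to 20.7. These parts were not matched, since their median share of UMIs on the photosynthesis genes was 1.94% in Fe− and 7.30% in Fe+. In the Fe+ part with a median share of 1.32%, CGLD27 was at 1.97 CPM (8 UMIs). In the Fe+ part with a median share of 3.19%, it was at 10.3 CPM (46 UMIs).

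The summed level of the photosynthesis list itself moved with strain and iron. It was 213089 CPM in Fe+ and 112877 CPM in Fe− of experiment 1, 103145 and 50452 CPM in CC-5390 of experiment 2, and 36270 and 9611 CPM in CC-4532. The library with the smallest of these 6 sums, Fe− of CC-4532, is also the one in which CGLD27 stayed low under iron starvation. The sums in N− R1 and R2, where iron was supplied, were smaller still, at 8053 and 9182 CPM. Within CC-5390 the sum was lower in Fe− than in Fe+ in both experiments, while CGLD27 was higher. The part of the photosynthesis level in the strain difference was not tested.

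**Figure D3:**
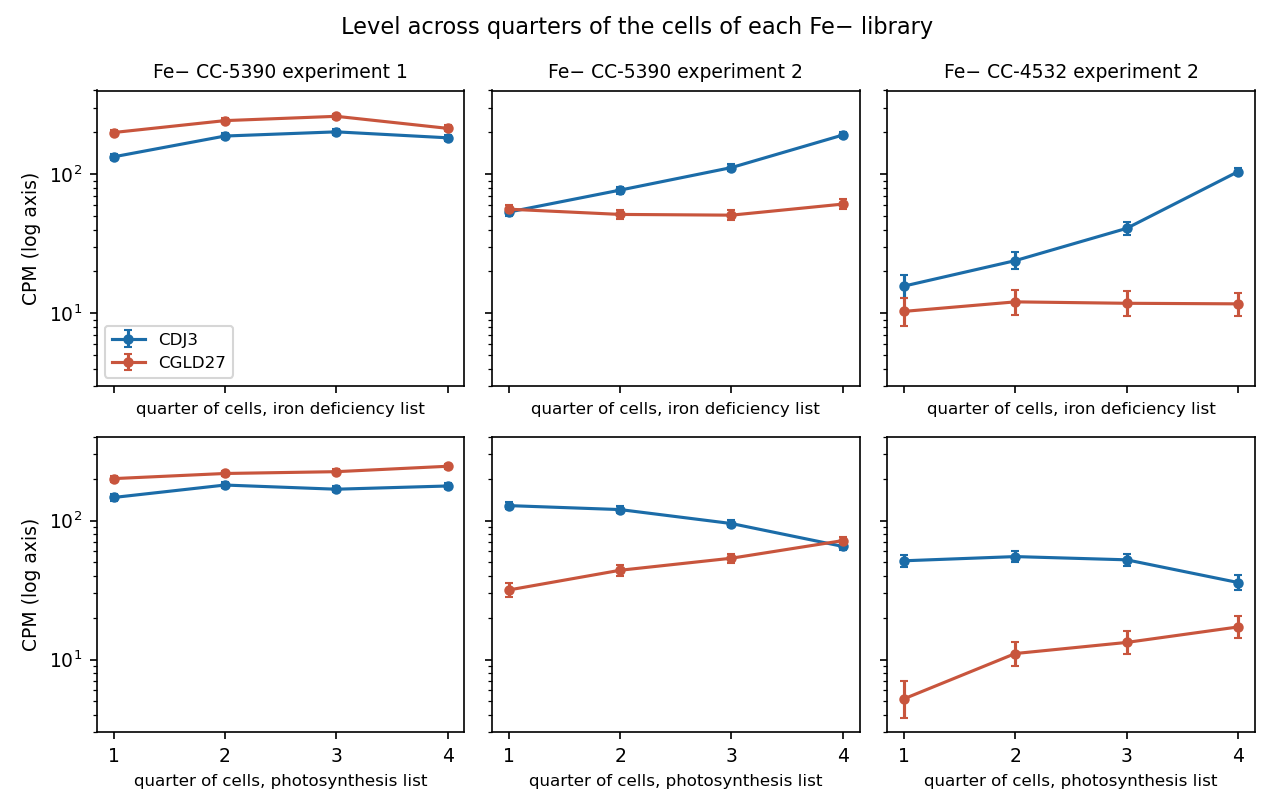
Level of CDJ3 and CGLD27 (CPM, log axis, exact Poisson 95% intervals for counting) in 4 equal parts of the cells of each Fe− library, ordered by the share of UMIs on the other iron deficiency genes (top) or on the photosynthesis genes (bottom). In the 2 libraries of experiment 2, CDJ3 is higher with the iron list and CGLD27 with the photosynthesis list.

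The Mix library of experiment 1 shows the pair in Fe+ and Fe− cells that were captured together. CDJ3 was at 77.4 CPM (74.4 to 80.4) and CGLD27 at 104.0 CPM (100.5 to 107.5), below the means of the 2 pure libraries, 93.6 and 119.5 CPM. The CDJ3 level lay 39.2% of the way from Fe+ to Fe−, and the CGLD27 level 42.5%. The 42 other list genes that were over 4-fold higher in Fe− with at least 200 UMIs there lay 37.6% to 47.2% of the way, with a median of 40.7%, so both genes fell within their range.

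Mix cells were then divided at the midpoint between the medians of the pure libraries in the share of UMIs on the 98 other list genes, 1.07% of UMIs. Of the Mix cells, 4709 were above and 6239 at or below it, and 18.6% lay within 20% of it. Above the midpoint CDJ3 was at 116.1 CPM and CGLD27 at 154.7 CPM, and below it they were at 53.8 and 73.1 CPM. The pure Fe− library had 186.5 and 235.5 CPM above the midpoint and 129.3 and 198.7 CPM below it, and the pure Fe+ library 21.9 and 15.2 CPM above it and 17.9 and 15.0 CPM below it. The midpoint did not divide the 2 cultures cleanly, since 19.3% of pure Fe− cells fell below it and 14.4% of pure Fe+ cells above it. In the pure Fe− library the genes thus stayed high in the cells that the rest of the list placed with Fe+. Cells low in the list were also deeper in that library. The lowest of its 4 parts by the list had a median of 5528.5 UMIs per cell and the highest 2244.5. Divided by depth instead, CDJ3 was at 225.9 CPM in the shallowest part and 140.8 CPM in the deepest. The Fe− cells below the midpoint are therefore not shown to be in the state of Fe+ cells.

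**Figure D4:**
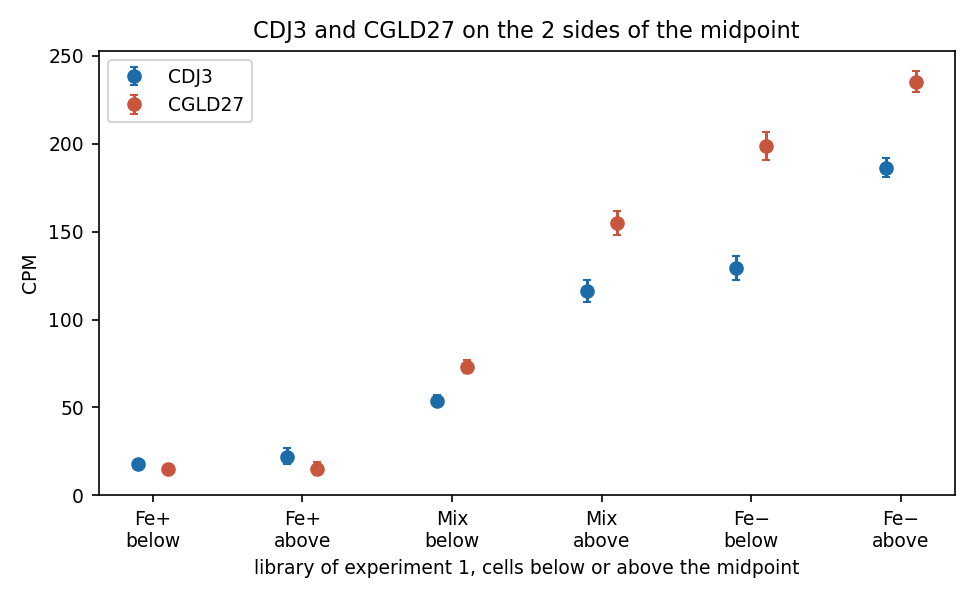
Level of CDJ3 and CGLD27 (CPM, exact Poisson 95% intervals for counting) in cells of the 3 libraries of experiment 1, divided at the same midpoint of the share of UMIs on the other iron deficiency genes. Both sides of the Mix library lie between the pure libraries, and the Fe− cells below the midpoint are still at 129.3 CPM for CDJ3 and 198.7 CPM for CGLD27.

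UMIs of both genes were found together in 792 Mix cells, against 532.4 expected from the 2 shares within 10 classes of depth, 1.49 times as many (1.39 to 1.60 from counting). An excess is built into Mix, which pools a culture rich in both genes with a culture poor in both. In the pure Fe− library of experiment 1 the count was 2450 against 2264, or 1.08 times (1.04 to 1.13). In Fe− of CC-5390 in experiment 2 it was 923 against 913.2, or 1.01 times (0.947 to 1.08), and in Fe− of CC-4532 66 against 55.3, or 1.19 times (0.923 to 1.52). Within the Fe− cultures of experiment 2, cells with 1 of the genes were therefore not detectably richer in the other. In Fe+ of CC-5390 in experiment 2, 40 cells had UMIs of both genes against 25.8 expected, or 1.55 times (1.11 to 2.11). In the other Fe+ libraries and in N− R1 and R2 the interval included 1.

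Neither gene was called for nitrogen starvation, in a test that has N− as 1 summed sample and takes the spread from the Fe+ and Fe− libraries of CC-5390, so that N− is assumed to vary like them. The N− duplicates agreed within counting error, with CDJ3 at 22.6 and 22.9 CPM and CGLD27 at 8.05 and 8.28 CPM in R1 and R2. In Fe+ of the same experiment CDJ3 was at 22.9 CPM and CGLD27 at 5.98 CPM. In edgeR's quasi-likelihood test of N− against both Fe+ libraries of CC-5390, which called 1995 of 15431 genes (12.9%), the log2 fold change was -0.64 for CDJ3 (SE 0.89, adjusted p = 0.638) and -0.96 for CGLD27 (SE 0.93, adjusted p = 0.496). Blocking by experiment gave -0.82 (adjusted p = 0.406) and -0.44 (adjusted p = 0.683). Over 11 alternatives the adjusted p ranged from 0.344 to 0.981 for CDJ3 and from 0.203 to 0.817 for CGLD27. The direction depends on scale: in plain CPM against Fe+ of experiment 2, CDJ3 had a log2 ratio of -0.01 and CGLD27 of 0.45, while the median over 14207 genes was 0.95, and with TMM library sizes the values were -1.12 and -0.65. The iron and nitrogen comparisons share the Fe+ libraries.

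Few relatives of the pair could be named, because the matrices hold locus IDs and the study names only some of them. Names came from the gene lists and text of the study alone, the iron deficiency list among them. Relatives without a name there were not looked at. Of 19 symbols sought for J-domain proteins and their chaperone partners, 2 were matched, CDJ3 and CDJ5. CDJ5 (Cre07.g320350), a related chloroplast J-domain protein that is on the iron deficiency list too, was at 9.91 and 7.87 CPM in Fe+ of CC-5390 and at 82.5 and 66.1 CPM in Fe−, in experiments 1 and 2. In CC-4532 it was at 6.24 CPM in Fe+ and 77.1 CPM in Fe−. CDJ5 thus reached a similar level in both strains, and the Fe+ and Fe− libraries did not overlap. Its log2 fold change for iron in CC-5390 was 2.94 (SE 0.68, edgeR adjusted p = 0.236), and 2.93 with the block (SE 0.54, adjusted p = 0.00164). CDJ5 was also above Fe+ in N−, at 28.0 and 32.5 CPM in R1 and R2, with an edgeR log2 fold change of 1.07.

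Of 22 symbols sought for iron-sulfur cluster assembly, 1 was matched, the glutaredoxin GRX6 (Cre01.g047800), from a family of small thiol oxidoreductases, some of which can carry such clusters. GRX6 is on the iron deficiency list but was at 77.3 CPM in Fe+ and 69.6 CPM in Fe− of experiment 1, at 43.4 and 29.1 CPM in CC-5390 of experiment 2, and at 17.3 and 16.4 CPM in CC-4532. It was not called for iron (log2 fold change -0.49, SE 0.63, edgeR adjusted p = 0.779). In the same test of N− as 1 sample it fell, to 8.45 and 9.92 CPM in R1 and R2, with a log2 fold change of -3.35 (SE 0.98, edgeR adjusted p = 0.0448). That call rests on Fe+ of experiment 1, without which the adjusted p was 0.0914, and it was also lost without either library of experiment 2 used beside N− (adjusted p = 0.0556 without Fe+, 0.0548 without Fe−) and with relative log expression size factors (0.0525).

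Among 4 other genes named for conservation in the green lineage, CGL86 (Cre12.g534450) was the only one past the threshold for iron in the blocked edgeR fit, and it was lower in Fe−. It was at 139.4 CPM in Fe+ and 19.9 CPM in Fe− of experiment 1, at 59.3 and 12.1 CPM in CC-5390 of experiment 2, and at 22.6 and 8.87 CPM in CC-4532. The log2 fold change was -2.71 (SE 0.68, edgeR adjusted p = 0.255), and -2.69 with the block (SE 0.53, adjusted p = 0.00299). In that test of N− it fell as well, to 5.68 and 6.43 CPM, with a log2 fold change of -4.63 (SE 1.07, edgeR adjusted p = 0.0233). CGL106 (Cre05.g242600), which is on the iron deficiency list, was at 15.8 and 13.5 CPM in Fe+ of CC-5390 and 53.7 and 49.1 CPM in Fe−, and in CC-4532 at 14.7 and 85.8 CPM. Its blocked log2 fold change for iron was 1.67 (SE 0.52, edgeR adjusted p = 0.0504), which missed the threshold. CGL106 was higher still in N−, at 129.1 and 147.4 CPM in R1 and R2, with an edgeR log2 fold change of 2.53 against Fe+. Neither CGL58 nor CGLD3 was called for iron (blocked edgeR adjusted p = 0.989 and 0.420).

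Finally, genes were ranked by how closely their levels followed those of the pair over the 9 libraries, by Pearson's r of log2(CPM + 1) among 13118 genes with at least 200 UMIs in all. The points share libraries and depth, and the N− pair counts double, so r is a description. For CDJ3 the highest was Cre07.g331450 (r = 0.977), followed by Cre07.g336800 (0.955), Cre03.g172250 (0.951), Cre03.g172750 (0.949) and Cre11.g469350 (0.948). Cre07.g336800 and Cre11.g469350 are on the iron deficiency list, and the list supplied 30 of the 100 genes most like CDJ3. For CGLD27 the highest were Cre07.g341150 (0.966), Cre13.g564151 (0.963), Cre09.g398067 (0.963), Cre07.g346250 (0.963) and Cre10.g456900 (0.959). Of these only Cre10.g456900 is on the list, which supplied 12 of the 100 genes most like CGLD27. The files do not name these loci. CDJ3 and CGLD27 had r = 0.891 with each other, which put CGLD27 43rd among the genes most like CDJ3 and CDJ3 95th among those most like CGLD27. By ranks the resemblance was lower, with a Spearman rho of 0.617. Some of the loci named above had few UMIs in many libraries, which limits their r. Cre13.g564151 had 3 UMIs in each Fe+ library of CC-5390, and 7 and 1 in Fe− and Fe+ of CC-4532. Cre07.g341150 had 3 in each N− library. Cre07.g331450 had 3 in Fe+ of CC-4532, and 5 and 6 in N− R1 and R2.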

How the data were processed

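The authors aligned reads of Chromium 3′ libraries to the v5.5 genome with Cell Ranger and deposited a matrix of raw UMI counts for each library, with a row per gene and a column per cell barcode. All deposited cells were used. Cells were not treated as replicates, and no doublets were removed. Counts were summed per library, and N− R1 and R2 were added as 1 sample. The members and lists were chosen with earlier results of these data known. The iron deficiency and photosynthesis lists are those of the study, and the J-domain and iron-sulfur lists hold symbols from general knowledge.

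Ratios of library sums had 0.5 added to each count and exact binomial intervals. A difference between ratios had a counting SE. Shares of cells were recomputed after thinning to 1000 or 500 UMIs, as the expected share under drawing without replacement. Median ratios were taken over genes with at least 20 UMIs in the libraries compared. The division of cells by list shares and the depth-matched count of cells with both genes were added after seeing the data.

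Genes were tested with edgeR 4.0.16 (filterByExpr, TMM, quasi-likelihood F test, Benjamini-Hochberg at 0.05, SE taken as the fold change over the square root of F), with DESeq2 1.42.0, another scaling, no filter, a replicate block and left-out libraries as alternatives, after tests on simulated data. Fe+ and Fe− of 1 experiment came from 1 pre-culture, per the methods, so the experiment pairs them. Their deviations from group means had a correlation of 0.501. In the unblocked iron fit of CC-5390, with n of 2 libraries per condition, p-values measure the spread between 2 experiments. The block takes out the shift shared by the libraries of an experiment, and leaves 1 residual degree of freedom against 2 without it. N− enters as 1 sample and each CC-4532 condition as 1 library, so p-values there take their spread from the Fe+ and Fe− libraries of CC-5390.

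Named genes were the pair, the 5 genes most like each, every annotated gene of the J-domain and iron-sulfur lists, and of the CGL genes up to 3 rises and 3 falls past the threshold in the blocked iron fit. CGL106, CGL58 and CGLD3 were named after their values were seen. RefSeq positions matched 17738 genes of the matrices. No sequence of the pair was used here.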

Additional observations from a re-analysis of the deposited data

How the results depend on the processing

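Of 211 alternative values, 138 stayed within the counting interval of the reported value, or within 1.5 times a count, and 8 had the opposite sign. In 5 of these 8 the interval of the reported value included 0: the CDJ3 strain difference, at -0.08 with each cell counted equally and with the values given below for 3 other settings, and the CGLD27 ratio between the highest and lowest part by the iron list in Fe− of CC-5390 in experiment 2, at -0.018 without the most abundant list gene. The remaining 3 are named as changes of sign below. The cause of a shift was not tested. With each cell counted equally, the log2 ratio of Fe− to Fe+ in CC-5390 was 3.42 for CDJ3 and 4.08 for CGLD27 in experiment 1, and 2.27 for CDJ3 in experiment 2. Without the 5% of cells with the most UMIs it was 1.93 for CDJ3 in experiment 2, and its N− ratio was -0.39. With TMM library sizes the ratios were 3.01 (CDJ3) and 3.71 (CGLD27) in experiment 1. In CC-4532 they were 1.69 for CDJ3 and -0.0073 for CGLD27, which changed sign. For N− they were -1.12 for CDJ3 and -0.65 for CGLD27, which changed sign too. The strain difference was then -0.30 for CDJ3 and -3.12 for CGLD27. With CC-5390 taken from experiment 1 it was -1.06 and -3.46, and with the mean of both experiments -0.49 and -3.10. With CC-4532 in no second experiment, that pair of libraries could not be left out.

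Thinned to 1000 UMIs, CDJ3 was found in 17.1% and 1.73% of Fe− and Fe+ cells in experiment 1, 9.02% and 2.27% in experiment 2, and 3.95% and 0.946% in CC-4532, and CGLD27 in 21.7% and 1.42%, 5.19% and 0.554%, and 1.16% and 0.837%. At 500 UMIs the shares were 8.84% and 0.871%, 5.26% and 1.14%, and 2.06% and 0.466% for CDJ3, and 11.2% and 0.716%, 2.73% and 0.278%, and 0.590% and 0.413% for CGLD27. These are lower by construction. Without Mix cells within 20% of the midpoint, the cells below it had 42.4 CPM of CDJ3 and 56.6 CPM of CGLD27, and after thinning 59.4 and 84.6 CPM. Of the 5 genes most like each member, Spearman's rho kept 1 for CDJ3 and 1 for CGLD27, and leaving out Mix kept 2 for CGLD27. Among the Fe− cells of experiment 1 at or above the median depth, the log2 ratio of CGLD27 between the highest and lowest part by the iron list changed sign, to -0.024.

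For Fe− against Fe+ in CC-5390, DESeq2 called 556 genes, no filter 48 and the replicate block 1194, against 0. Leaving out 1 library gave 11 (without Fe− of experiment 2) to 364 genes (without Fe+ of experiment 2), with 77 without Fe+ and 184 without Fe− of experiment 1. For N− against Fe+, DESeq2 called 3259 genes, the replicate block 4588, and N− R1 and R2 as 2 samples 5700, against 1995, and leaving out 1 library gave 1451 to 2795. The strain difference had 0 calls in each alternative except without Fe+ of CC-5390 in experiment 2, which gave 15, so leaving out 1 library gave 0 to 15. The block called neither member for N−.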
